A study of Glycine max with 12 samples.

Results

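The 9 genes described here carry the symbols of the evening arm of the plant circadian clock: TOC1, GIGANTEA, GMGIA, ELF3A, GMELF3B, GMELF4A, GMLUXB, GMLUXC and FKF1. They were taken by name from the 55051 genes of the deposited table, and all 9 passed the filter that left 33119 genes to test (a mean normalized count of at least 10). RNA sequencing was done on leaves of wild-type soybean (Glycine max, cultivar Magellan) raised in growth chambers. The 4 groups of 3 libraries each were plants under combined stress (drought and heat together), plants under heat stress alone, plants under water deficit alone, and untreated control plants that were watered 3 times a week. The design crosses heat with drought, so it asks what each does alone and what the pair does together. The labels give neither the strength or length of the treatments nor the time of day of harvest. They also do not say whether the libraries of a group came from separate plants, so p-values here measure the spread between libraries, which may be technical in part.

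In Arabidopsis, where most of this pathway was worked out, the clock runs as a loop between genes that peak around dawn and genes that peak around dusk. TOC1 is a pseudo-response regulator that represses the dawn MYB genes. ELF3, ELF4 and LUX join into the evening complex, a repressor of growth and clock genes at night, with LUX as the subunit that binds DNA and ELF3 as the scaffold. GIGANTEA binds the blue-light receptor F-box proteins FKF1 and ZTL, and with FKF1 it clears repressors of CONSTANS, which in turn activates the florigen gene FT. In soybean a GIGANTEA gene is the maturity locus E2, which shifts flowering time. RefSeq gives E2 the synonym GmGIa, the name of the row GMGIA. The row GIGANTEA matched by symbol a second gene, with the synonym GmGIb. The E2 entry lists GIGANTEA among its synonyms too, so the names of this pair rest on the symbols alone.

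Depth was 26077068 to 46186226 reads per library, as recovered from the normalized counts. All 7 photosynthesis genes that mark leaf tissue were detected, and 7 of 8 seed storage genes were at 0 in every library. Small heat shock proteins (11 genes) summed to between 7438 and 32119 normalized counts in combined stress, 3357 to 9572 in heat stress, 1370.2 to 5912 in water deficit and 1256 to 1980.0 in control. Of 9 tested, 7 were called higher than control in combined stress, 4 in heat stress and 0 in water deficit (limma). Of 16 dehydrin and LEA genes tested, which mark drying tissue, 9 were called higher than control in combined stress, 0 in heat stress and 1 in water deficit. Heat stress library 3 and combined stress library 1 stood apart from the other libraries of their groups in the clock genes, as shown gene by gene below. In leaf RNA as a whole, fewer cells of a type and less RNA per cell cannot be told apart. Levels are normalized counts, which are not per length of transcript, so they are compared between libraries and not between genes.

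ELF3A was the only member called in any comparison (limma, adjusted p under 0.05), and it was lower in heat stress and in combined stress than in control. It had 1721, 879.9 and 1136 normalized counts in combined stress, 1349, 975 and 758 in heat stress, 1782, 1486 and 1218 in water deficit, and 2352, 2885 and 2277 in control. Every treated library lay below every control library, while the 3 treatments overlapped one another. The group means were 1245 ± 431 in combined stress, 1027 ± 299 in heat stress, 1495 ± 282 in water deficit and 2504 ± 331 in control (SD, n = 3 each). ELF3A fell by 1.32 on the log2 scale in heat stress against control (SE 0.27, limma adjusted p 0.0273) and by 1.06 in combined stress against control (SE 0.27, limma adjusted p 0.0251). In water deficit the difference was -0.75 (SE 0.27, limma adjusted p 0.228) and missed the threshold. With each of the 12 libraries left out in turn, 8 fits kept the heat call (adjusted p up to 0.112, lost without heat stress library 2 or any single control library). The combined stress call was kept in 7 (up to 0.0892), and lost without combined stress library 2 or 3 or any single control library.

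The other member named for ELF3, GMELF3B, moved little. It had 729, 594 and 639 normalized counts in combined stress, 847, 695 and 527 in heat stress, 648, 549 and 548 in water deficit, and 685, 828 and 683 in control. Combined stress and heat stress overlapped control, and the 3 water deficit libraries lay below all control libraries. The log2 differences from control were -0.16 in combined stress (95% interval -0.58 to 0.26), -0.11 in heat stress (-0.52 to 0.31) and -0.33 in water deficit (-0.75 to 0.09).

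**Figure D1:**
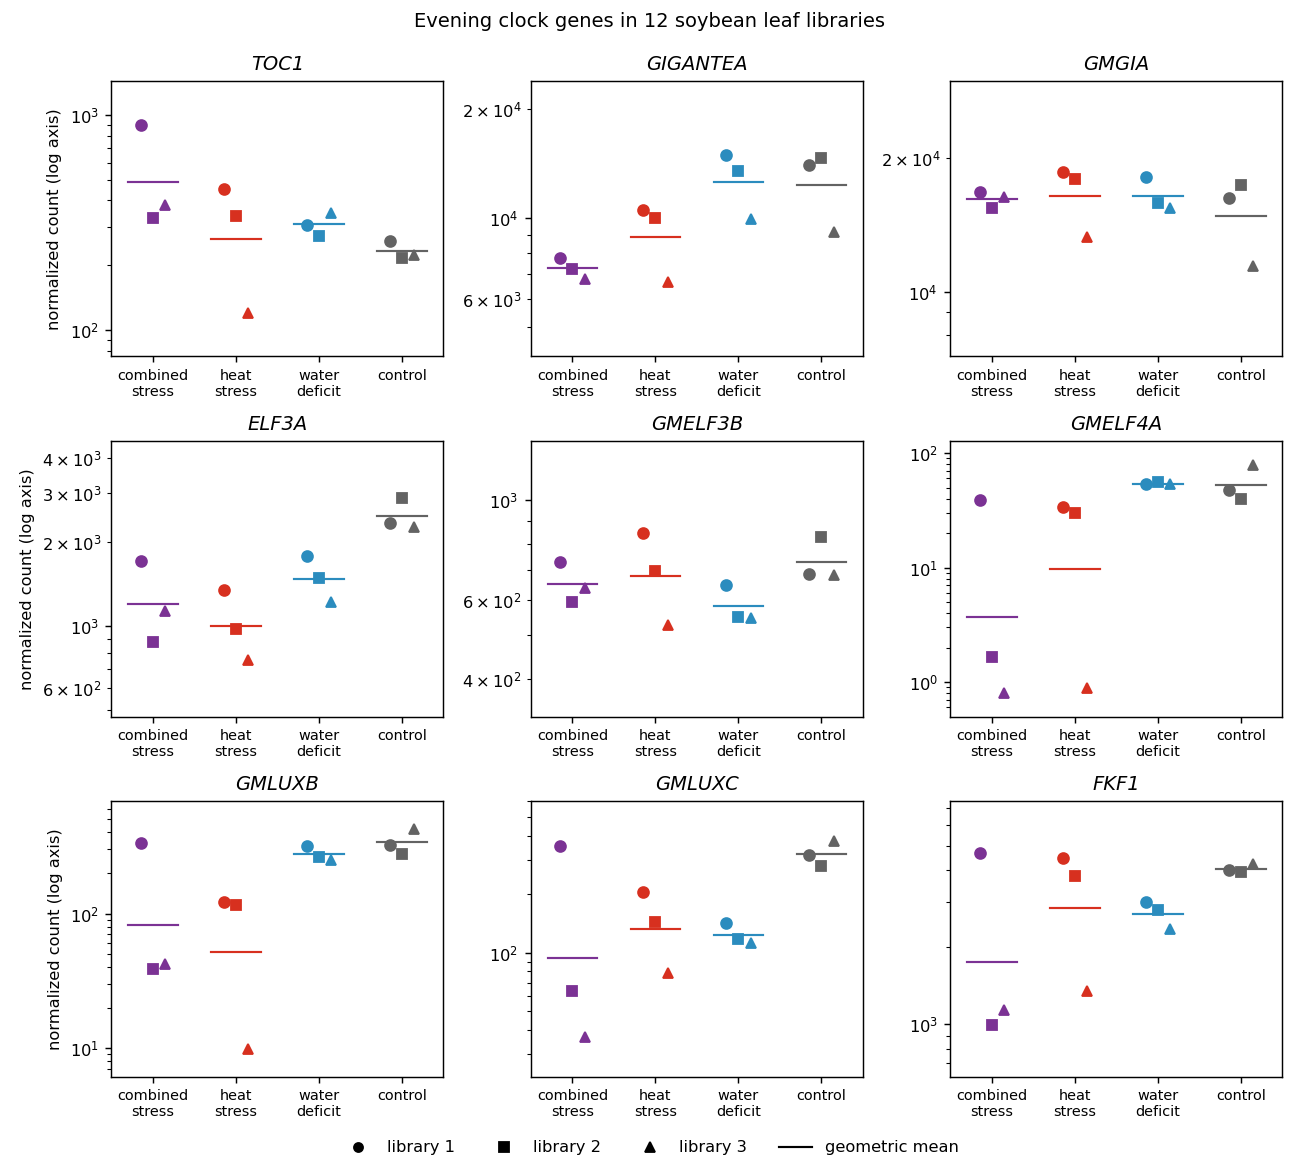
Normalized counts of the 9 evening clock genes (vertical log axis, a scale of its own for each gene) in 4 groups of 3 libraries each. Symbols mark libraries 1 to 3 of a group, and lines are geometric means. All treated libraries of ELF3A lie below the control libraries, and GMELF4A, GMLUXB and FKF1 each have 3 low libraries, numbers 2 and 3 of combined stress and number 3 of heat stress.

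GMELF4A, the single row named for ELF4 that passed the filter, was all but undetected in 3 of the 6 heated libraries. It had 38.8, 1.66 and 0.80 normalized counts in combined stress, 34.0, 29.7 and 0.893 in heat stress, 53.2, 55.8 and 53.2 in water deficit, and 47.6, 39.6 and 79.5 in control. The low values are 2, 1 and 1 reads in combined stress libraries 2 and 3 and heat stress library 3, under the 3 reads taken as the detection floor. Every heated library lay below every control library, including the 3 in which the gene was well detected. The margin was narrow, with 38.8 (47 reads) in combined stress library 1 and 39.6 (52 reads) in control library 2. The log2 difference was -3.23 in combined stress against control (SE 1.199, limma adjusted p 0.0941) and -2.09 in heat stress against control (SE 1.199, limma adjusted p 0.342). Neither passed the test, with 1 well detected library in combined stress and 2 in heat stress. Without heat stress library 3 the heat difference was -0.72 (limma adjusted p 0.677). In water deficit it was 0.02 (95% interval -2.59 to 2.64).

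GMLUXB and GMLUXC, the members named for the DNA-binding subunit, were low in the same 3 libraries. GMLUXB had 337, 38.9 and 42.4 normalized counts in combined stress, 122, 115 and 9.82 in heat stress, 317, 261 and 251 in water deficit, and 324, 279 and 427 in control. All heat stress libraries lay below all control libraries, while combined stress library 1 lay among them. GMLUXC had 352, 63.8 and 36.8 normalized counts in combined stress, 204, 144 and 78.6 in heat stress, 142, 118 and 113 in water deficit, and 318, 278 and 375 in control. This copy also lay below control in all 3 water deficit libraries, where GMLUXB overlapped control. In heat stress against control the log2 differences were -2.66 for GMLUXB (SE 0.91, limma adjusted p 0.126) and -1.27 for GMLUXC (SE 0.64, limma adjusted p 0.28). Without heat stress library 3 they were -1.50 and -0.90. In combined stress against control they were -2.02 (adjusted p 0.163) and -1.76 (adjusted p 0.0884). In water deficit against control they were -0.30 (adjusted p 0.939) and -1.37 (adjusted p 0.371), all by limma. GMLUXC was called in water deficit when only the 6 libraries of that comparison were fitted (limma adjusted p 0.012). That fit called 1318 genes of the whole table, where the fit of all 12 libraries called 423. Without combined stress library 1, GMLUXB, GMLUXC, GMELF4A and FKF1 were all called lower in combined stress than in control. Their log2 differences were then -3.02, -2.70, -4.63 and -1.93. The calls over all genes moved with the library left out too, as given below. Without combined stress library 3 GMLUXC was at -1.09, and without combined stress library 2 FKF1 was at -0.82, neither called.

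FKF1, the blue-light receptor that partners GIGANTEA, was low in the same 3 libraries as GMELF4A, GMLUXB and GMLUXC. It spanned a smaller range in each heated group than GMELF4A and GMLUXB. It had 4661, 994 and 1138 normalized counts in combined stress, 4471, 3813 and 1346 in heat stress, 2994, 2789.9 and 2364 in water deficit, and 4017, 3939.8 and 4237 in control. Combined stress library 1 was the highest of all 12 libraries and combined stress library 2 the lowest. The control libraries stayed within 1.08-fold of each other, and all 3 water deficit libraries lay below them. The log2 differences from control were -1.22 in combined stress (adjusted p 0.153), -0.52 in heat stress (adjusted p 0.629) and -0.59 in water deficit (adjusted p 0.716, all by limma). Without heat stress library 3 the heat difference was 0.023.

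TOC1 had its highest level in combined stress, though without a call. It had 898, 332 and 383 normalized counts in combined stress, 454, 337 and 121 in heat stress, 308, 275 and 351 in water deficit, and 259, 217 and 223 in control. All libraries of combined stress and of water deficit lay above all control libraries, and heat stress library 3 was the lowest of the 12. The log2 difference from control was 1.06 in combined stress (SE 0.45, limma adjusted p 0.142), 0.19 in heat stress (adjusted p 0.856) and 0.41 in water deficit (adjusted p 0.777). TOC1 in combined stress passed the test with DESeq2 on the recovered reads (adjusted p 0.0429), while without combined stress library 1 its log2 difference was 0.62 (limma adjusted p 0.339). The heat difference changed sign without heat stress library 1, to -0.20.

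**Figure D2:**
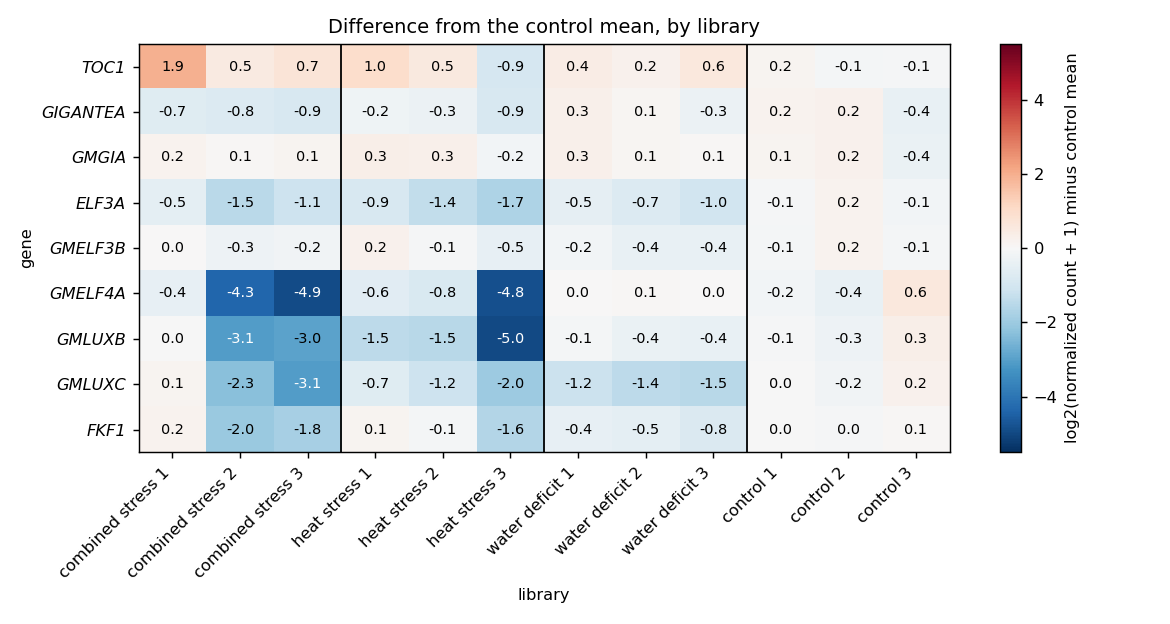
Difference of each library (columns) from the mean of the control libraries for each of the 9 genes (rows), on the scale of log2(normalized count + 1); red is above the control mean and blue below. Combined stress libraries 2 and 3 and heat stress library 3 are darkest for GMELF4A, GMLUXB, GMLUXC and FKF1, and combined stress library 1 stands out for TOC1.

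The GIGANTEA copies, whose Arabidopsis relative partners FKF1, are described as a pair. GIGANTEA had 7782, 7251 and 6794 normalized counts in combined stress, 10551, 9988 and 6652 in heat stress, 14907, 13443 and 9967 in water deficit, and 13989, 14634 and 9167 in control. Every combined stress library lay below every library of water deficit and of control. The log2 difference was -0.76 in combined stress against control (SE 0.26, limma adjusted p 0.0753) and -0.79 in combined stress against water deficit (SE 0.26, limma adjusted p 0.0682), neither past the threshold. With DESeq2 on the recovered reads both passed (adjusted p 0.0132 and 0.0125). GMGIA had 16784, 15443 and 16287 normalized counts in combined stress, 18616, 17921 and 13279 in heat stress, 18139, 15843 and 15451 in water deficit, and 16279, 17391 and 11432 in control. All 4 groups overlapped, and the log2 differences from control were 0.13 in combined stress (95% interval -0.40 to 0.66), 0.15 in heat stress (-0.38 to 0.68) and 0.15 in water deficit (-0.38 to 0.68).

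Within a library the ratio of both copies cancels the scaling of that library, and it separated the groups more cleanly than either gene. These ratios were chosen after the values were seen, for the 3 pairs of copies among the members. The permutation p-values below, adjusted over 6 tests, do not account for that choice. Ratios of other gene pairs were not examined, so no share over all pairs stands beside them. GIGANTEA per GMGIA was 0.464, 0.470 and 0.417 in combined stress, 0.567, 0.557 and 0.501 in heat stress, 0.822, 0.849 and 0.645 in water deficit, and 0.859, 0.841 and 0.802 in control. All heated libraries lay below all unheated ones, and all combined stress libraries below all heat stress ones. The ratio was 0.617 times as high with heat, as the average over both water states (log2 change -0.70, two-sided exact permutation test within water state, p = 0.005, adjusted p 0.015 over 6 tests). This p is the smallest that 400 relabellings allow, and it held in each of the 12 fits that left out 1 library. With water deficit the log2 change of this ratio was -0.19 (exact permutation p = 0.03, adjusted p 0.036), and 6 of the 12 such fits lost it.

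ELF3A per GMELF3B followed heat as well. It was 2.36, 1.48 and 1.78 in combined stress, 1.59, 1.40 and 1.44 in heat stress, 2.75, 2.705 and 2.22 in water deficit, and 3.44, 3.48 and 3.33 in control. All heat stress libraries lay below all control libraries, while combined stress and water deficit overlapped. The ratio was 0.558 times as high with heat (log2 change -0.84, exact permutation p = 0.01, adjusted p 0.015), by -0.47 in droughted and -1.21 in watered plants. With water deficit the log2 change was -0.053 (exact permutation p = 0.745). That average joins 0.32 in heated plants and -0.42 in unheated ones, where all water deficit libraries lay below all control libraries. GMLUXB per GMLUXC was 0.958, 0.610 and 1.152 in combined stress, 0.599, 0.800 and 0.125 in heat stress, 2.24, 2.21 and 2.23 in water deficit, and 1.02, 1.003 and 1.14 in control. The water deficit libraries stood above the rest and close to each other. The log2 change was -1.38 with heat (exact permutation p = 0.005, adjusted p 0.015) and 1.12 with water deficit (exact permutation p = 0.01, adjusted p 0.015). Both, and the heat change of ELF3A per GMELF3B, held in each fit with 1 library left out. Without heat stress library 3 the changes of GMLUXB per GMLUXC were smaller, at -0.97 with heat and 0.71 with water deficit. How the authors' counting divided reads between near-identical copies is not given in the sources used here, so these ratios carry that uncertainty.

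**Figure D3:**
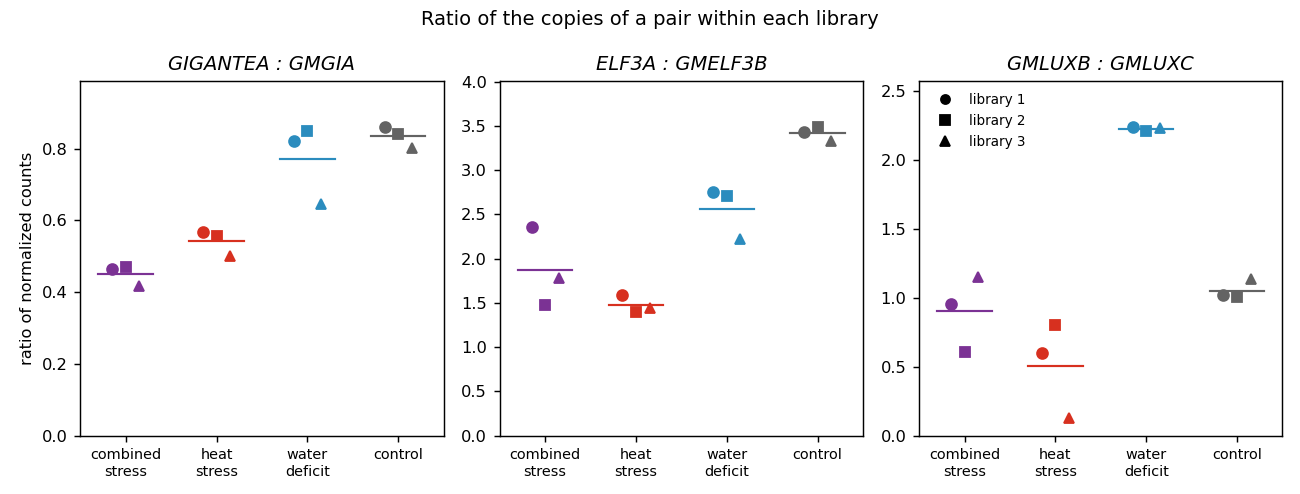
Ratio of the normalized counts of the copies of each pair within each library (vertical axis from 0, a scale of its own for each pair), by group. Symbols mark libraries 1 to 3 and lines are means of 3. GIGANTEA per GMGIA runs from 0.417 to 0.567 in the heated libraries and from 0.645 to 0.859 in the unheated ones, and GMLUXB per GMLUXC is highest in water deficit, at 2.21 to 2.24.

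Counted over the 9 members, calls were few. In combined stress against control 1 of 9 was called, with 13.8% of all genes tested called in that comparison. In heat stress against control 1 of 9 was called (3.11% of all genes), and in water deficit against control 0 of 9 (1.28%). Set against the single stresses, combined stress gave 0 of 9 against water deficit (12.7% of all genes) and 0 of 9 against heat stress (5.21%). At an unadjusted p under 0.05 there were 7 members in combined stress, 2 in heat stress and 1 in water deficit against control, beside 29.8%, 21.1% and 13.8% of all genes. In combined stress there were 2 against water deficit (30.1%) and 0 against heat stress (21.6%). On the recovered reads edgeR called 0 members in water deficit against control and 0 in combined stress against either single stress. DESeq2 called 0 in water deficit against control, 0 in combined stress against heat stress and 1 against water deficit (GIGANTEA). Over the whole table DESeq2 called 1938 genes in the first of these, 3845 in the second and 7082 in the last. The limma calls were 423, 1724 and 4221. These comparisons share the control or treatment libraries. The median log2 difference over the 9 members was -1.06 in combined stress, -0.52 in heat stress and -0.30 in water deficit against control, where the medians over all genes tested were -0.01, -0.01 and 0.02.

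Single libraries moved these counts. Without combined stress library 1, 5 members were called in combined stress against control (ELF3A, GMELF4A, GMLUXB, GMLUXC and FKF1) and 4 against water deficit (the same without ELF3A). Without heat stress library 3 the counts were 5 (ELF3A, GMELF4A, GMLUXB, TOC1 and GIGANTEA) and 2 (GMELF4A and GIGANTEA). Without combined stress library 2 or 3, or any single control library, 0 were called in combined stress against control. Leaving out heat stress library 3 also raised the calls over all genes in heat stress against control to 4742, against 1031 with it. The calls over all genes moved in the other comparisons too. With 1 library left out they ran from 1994 to 6614 in combined stress against control, where all 12 libraries gave 4573. In combined stress against water deficit they ran from 1233 to 6460, where all 12 libraries gave 4221. Which fit gave which of these totals is not given here. The member counts of single fits can therefore not be set against a share over all genes.

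Separation of the groups, with no overlap between the libraries, was seen for 4 of 9 members in combined stress against control (38.2% of all genes), namely TOC1 above and GIGANTEA, ELF3A and GMELF4A below. In heat stress against control it was 4 of 9 (26.8% of all genes), with ELF3A, GMELF4A, GMLUXB and GMLUXC all below. In water deficit against control it was 5 of 9 (27.4%), with TOC1 above and ELF3A, GMELF3B, GMLUXC and FKF1 below. Combined stress separated from water deficit for GIGANTEA and GMELF4A, 2 of 9 (35.9%), and from heat stress for 0 of 9 (19.4%).

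**Figure D4:**
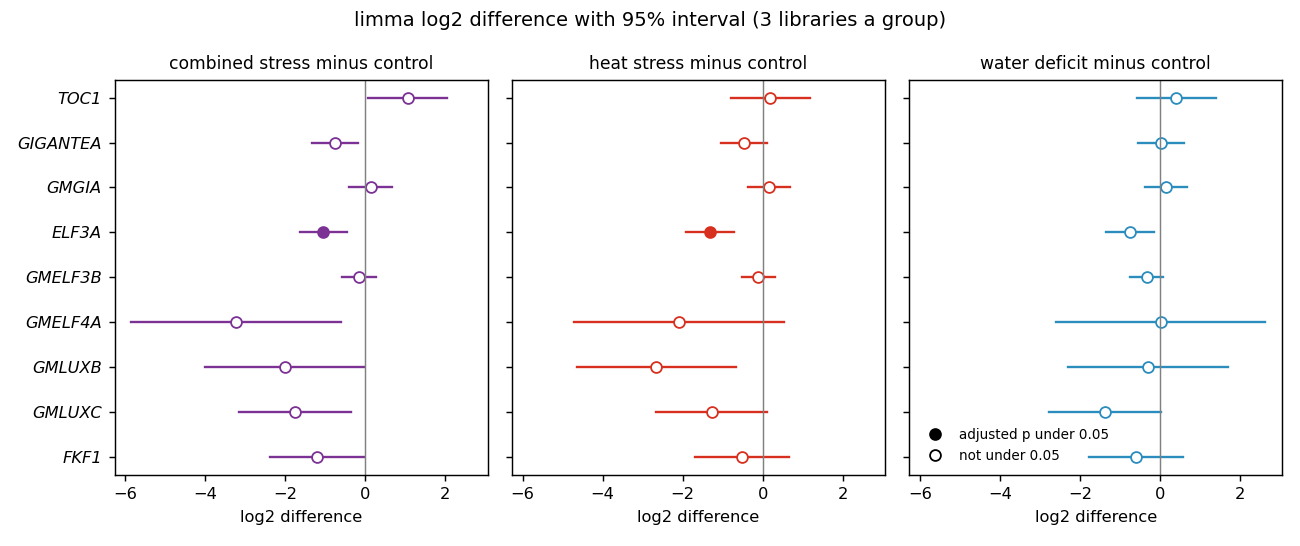
Log2 difference from control with its 95% interval (limma, all 12 libraries in 1 fit) for the 9 genes in combined stress, heat stress and water deficit. Filled points have an adjusted p under 0.05 over all genes tested, which holds for ELF3A in combined stress and in heat stress. The intervals of GMELF4A and GMLUXB are the widest.

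The interaction asks whether heat changes a gene differently in droughted and in watered plants. With limma 0 of 9 members were called, as was 0% of all genes tested. On the recovered reads edgeR and DESeq2 also called 0 members, while DESeq2 called 276 genes of the whole table. With 1 library left out limma called 0 members, and from 0 to 1583 genes over the whole table. ELF3A was the 1 member with an unadjusted p under 0.05. Its log2 difference for heat was -0.30 in droughted plants (combined stress minus water deficit) and -1.32 in watered plants (heat stress minus control), an interaction of 1.01 (95% interval 0.18 to 1.85, limma adjusted p 0.476). The intervals for GMELF4A, -4.86 to 2.53, and GMLUXB, -1.88 to 3.76, were too wide to place a direction.

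The order of the levels was therefore clear at few steps. For ELF3A, control stood above water deficit with no overlap, and then water deficit, combined stress and heat stress overlapped in that order. For GMELF4A, water deficit and control overlapped, control stood above heat stress, and heat stress and combined stress overlapped. For GMLUXC, control stood above heat stress, and then heat stress, water deficit and combined stress overlapped. For the other 6 members every pair of neighbours in the order overlapped.

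Most of the spread lay inside the heated groups. The standard deviation of GMELF4A on the log2 scale was 2.43 in combined stress, 2.38 in heat stress, 0.04 in water deficit and 0.51 in control (n = 3 each). Only 0.456% of all genes tested had a larger one in combined stress and 1.22% in heat stress, against 97.7% in water deficit. GMLUXB had 1.75, 2.002, 0.18 and 0.31 in the same order of groups, and FKF1 had 1.23, 0.94, 0.18 and 0.05. GIGANTEA and GMGIA went the other way in combined stress, with 0.10 and 0.06, where 91.6% and 96.4% of genes spread more. In heat stress they had 0.36 and 0.27, beside 0.30 and 0.12 in water deficit and 0.37 and 0.33 in control. The median over the 9 members was 0.77 in combined stress, 0.69 in heat stress, 0.18 in water deficit and 0.22 in control, beside 0.35, 0.37, 0.27 and 0.25 over all genes tested.

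**Figure D5:**
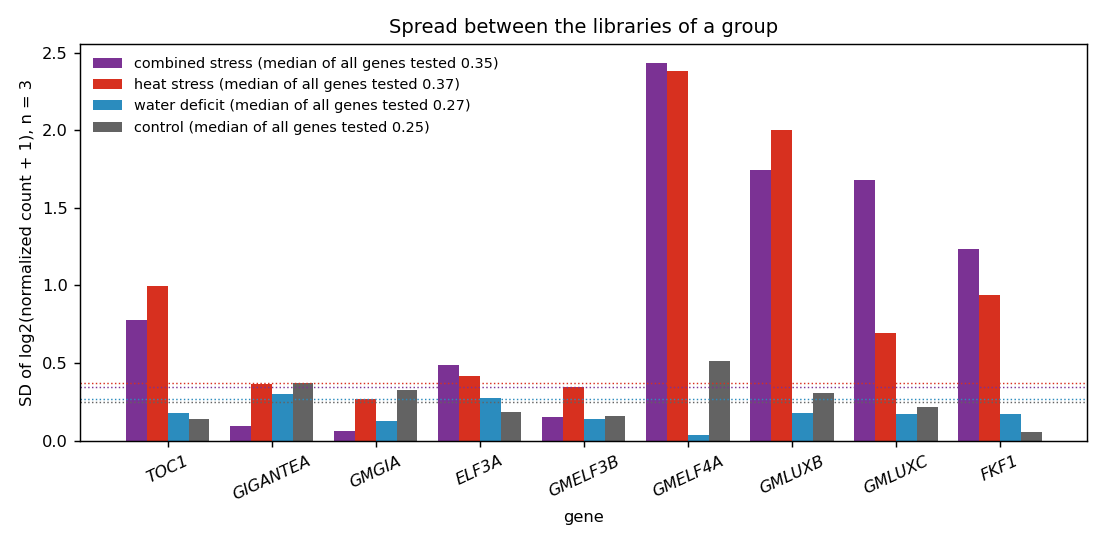
Standard deviation of log2(normalized count + 1) between the 3 libraries of each group (bars, axis from 0) for the 9 genes. Dotted lines give the median over all genes tested in each group. GMELF4A and GMLUXB spread most in combined stress and in heat stress, and GIGANTEA and GMGIA spread little in combined stress.

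The low libraries were shared between genes. Combined stress libraries 2 and 3 and heat stress library 3 were the lowest 3 of the 12 for GIGANTEA, GMELF4A, GMLUXB, GMLUXC and FKF1, that is for 5 of 9 members and for 6.18% of all genes tested. The same 3 libraries were the highest 3 for 6.97% of all genes tested and for 0 members, so they stood apart in other genes as well. These libraries were picked out by the members' own values, so the shares are a description. For GMELF4A the highest of the 3 was 1.66 normalized counts and the lowest of the other 9 was 29.7. For FKF1 the same values were 1346 and 2364, while for GIGANTEA they were 7251 and 7782, hardly apart. For TOC1 these 3 libraries were not the lowest of the 12, since combined stress libraries 2 and 3 were above every control library. Within the groups TOC1 was still lowest in them. It had 332 and 383 against 898 in combined stress, and 121 against 454 and 337 in heat stress. Its deviations from group means ran with those of the other members, at Pearson's r from 0.51 (GIGANTEA) to 0.96 (GMLUXB). The levels themselves did not: over the 12 libraries r ran from -0.11 (GIGANTEA) to 0.51 (GMGIA). Without the 2 libraries farthest from the median of TOC1, r ran from -0.77 (ELF3A) to 0.49 (GMGIA). The r of deviations thus rests largely on a few libraries, which also share their scaling between genes. The labels give no batch, date or hour of harvest by which these libraries could be set apart, and what moves them was not tested.

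The dawn MYB genes LCL1, LCL3 and LCL4, relatives of LHY, were, among heated libraries, highest in those 3. LCL3 had 308, 1863 and 2112 normalized counts in combined stress and 204, 153 and 2013 in heat stress, against 788, 669 and 502 in water deficit and 416, 412 and 332 in control. LCL1 had 556, 3612 and 3019 normalized counts in combined stress and 1429, 1097 and 6104 in heat stress, against 3331, 2742 and 1876 in water deficit and 2815, 2519 and 1906 in control. The libraries with 1 or 2 reads of GMELF4A thus had the highest LCL1 and LCL3 of the heated plants. None of these 3 genes was called in any of the 6 comparisons, and their part in the members' values was not tested.

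Among other genes of the pathway, the lists by symbol gave few calls. The 3 ZTL genes, F-box relatives of FKF1, were called in 0 comparisons, and ZTL2, with the highest counts of them, had 2103, 1780.4 and 1691 normalized counts in combined stress against 1771, 1535 and 1393 in control. GMELF4B and GMLUXA, the other rows named for evening complex genes, had means under 10 and were not tested, with at most 20 and 16 reads in a library. Copies were found by symbol only, so further copies under other names may exist. RefSeq lists GMLUXA as a transcribed pseudogene. PRR3A and PRR3B, relatives of TOC1 matched through RefSeq names after the table was seen, were called once. LOC100803462 (PRR3B) had 9231, 11729 and 10553 normalized counts in combined stress against 33464, 31116 and 17259 in heat stress (log2 difference -1.33, SE 0.30, limma adjusted p 0.0296). That call was kept in 6 of 12 fits with 1 library left out (adjusted p up to 0.131). With only these groups fitted it was also lost (0.164).

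Downstream, the photoperiod list held 28 genes, of which 20 were tested, and 4 were called lower and 0 higher in combined stress against control. In heat stress 2 were lower and 1 higher, and in water deficit 3 lower and 0 higher. The median log2 differences of the tested genes were -0.69, -0.82 and -0.61. RefSeq names, matched after the table was seen, added 7 genes (4 tested), with 1 called higher and 0 lower in combined stress, 0 called in heat stress or water deficit, and medians of 0.33, -0.077 and -0.015. The 1 called was LOC100804738 (COL20), a low gene with 30.6, 27.3 and 60.8 normalized counts in combined stress, 3.78, 2.79 and 11.6 in heat stress, 17.7, 13.7 and 13.3 in water deficit, and 3.52, 1.52 and 3.14 in control (log2 difference 3.40, SE 0.60, limma adjusted p 0.00397). GMFT5A, a florigen gene of the FT family, had 728, 656 and 469 normalized counts in combined stress, 366, 373 and 948 in heat stress, 2412, 2020.1 and 1982 in water deficit, and 1873, 1998 and 1760.3 in control. All heated libraries lay below all unheated ones. GMFT5A fell by 1.62 on the log2 scale in combined stress against control (SE 0.32, limma adjusted p 0.00706) and by 1.81 in combined stress against water deficit (SE 0.32, limma adjusted p 0.00592). In heat stress against control it fell by 1.89 (SE 0.32, limma adjusted p 0.0124), a call kept in 7 of 12 fits that left out 1 library (adjusted p up to 0.0645).

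COL8, COL10 and COL22, which carry the symbol of CONSTANS-like zinc finger genes, were the other 3 called lower in combined stress. COL22 had 9.91, 13.3 and 20.0 normalized counts in combined stress, 55.5, 90.2 and 96.4 in heat stress, 193, 230 and 106 in water deficit, and 399, 709 and 911 in control. The groups of COL22 did not overlap at any step of that order. COL22 fell by 5.42 on the log2 scale in combined stress (SE 0.40, limma adjusted p 4.27e-05) and by 3.00 in heat stress (adjusted p 0.00531). In water deficit it fell by 1.92 (adjusted p 0.0446), the last kept in 3 of 12 fits with 1 library left out (up to 0.208). COL8 and COL10 were called lower in water deficit too, by 1.46 and 1.63. COL21, with the highest counts of the list, was the 1 gene called higher in heat stress, by 1.75 (limma adjusted p 0.0483), which 2 of 12 such fits kept.

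The genes whose levels ran most like the members were looked for among 25212 others with a mean of at least 100, by Pearson's r of log2 values over the 12 libraries. These r are a description of libraries that share their scaling. Without the 2 libraries farthest from the median, r was 0.67 for the match of GMGIA and 0.80 to 0.97 for the other 8. For FKF1 the closest was LOC100812253 (r 0.99, Spearman's rho 0.98). For ELF3A it was LOC100796748 (r 0.94, rho 0.96), and for GIGANTEA LOC100816121 (r 0.95, rho 0.95). GMELF4A was closest to LOC100786372 (r 0.97, rho 0.73), GMLUXB to LOC100783616 (0.96, 0.92), GMLUXC to LOC100811845 (0.96, 0.97) and TOC1 to LOC100801649 (0.94, 0.91). GMGIA and GMELF3B had the loosest matches, LOC100791399 (0.89, 0.72) and LOC100779112 (0.88, 0.92). Of the 3 genes nearest to the mean of the 9 members, one has a name, COL16 (r 0.99), with 724, 39.8 and 72.0 normalized counts in combined stress and 594, 379 and 24.1 in heat stress, against 467, 486 and 324 in water deficit and 734, 738 and 959 in control. The others were LOC100820316 (0.99) and LOC100786372 (0.98), and the most opposite were LOC100795117 (-0.97), LOC100798404 (-0.96) and LOC100797554 (-0.94).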

How the data were processed

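The authors deposited 1 table of normalized counts per gene and library (a signal: reads divided by a size factor per library). The submitters' processing notes name cutadapt 1.18, FastQC 0.11.7, STAR 2.4.0.1 and DESeq2 1.20.0. Their settings, the genome build, the annotation and the counting of strands or copies are not given in the sources used here. All positive values were whole multiples of 1 read (100% within 0.01 reads), so reads were recovered. 0 columns lacked a sample. Gene names and synonyms come from RefSeq (Glycine_max_v4.0), where 49583 of 55051 symbols matched; no sequences were used.

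Genes with a mean of at least 10 were tested with limma 3.58.1 on log2(normalized count + 1), which understates changes of low genes. All 4 groups entered 1 fit with a variance trend, two-sided, with Benjamini-Hochberg adjustment over all genes, and calls at 0.05. Alternatives included edgeR 4.0.16 (quasi-likelihood, TMM) and DESeq2 1.42.0 on recovered reads. Methods were tested on simulated counts. Ratios of copies were tested by exchanging labels within water state (or heat state). The 9 members, gene lists and tests were chosen with earlier results of these data known. All members are described; of each list the gene with the highest counts is named, and other list genes were named after their values were seen; likeness is the highest r. The floor of 3 reads covers counting error only.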

Additional observations from a re-analysis of the deposited data

Results flagged for a closer look

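The mean ratio of ELF3A to GMELF3B moved in opposite directions with water deficit in heated and in unheated plants. It was higher in combined stress than in heat stress (log2 difference 0.32). Combined stress library 2, at 1.48, was level with the heat stress mean of 1.48, while libraries 1 and 3 had 2.36 and 1.78. In unheated plants the ratio was lower in all 3 water deficit libraries than the mean of control (-0.42). The smallest of the combined stress ratios was 1.48, and the heat stress libraries reached 1.59, so these groups overlapped. The difference between both effects was not tested.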

How the results depend on the processing

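Of 54 member results (9 genes in 6 comparisons), each tried under up to 7 other settings, 353 of 369 values kept direction and side of the threshold. Of 648 values with 1 library left out, 594 did. The number of members called went to 1 in water deficit against control (GMLUXC) and 0 in heat stress against control with only the libraries compared. Calls over the whole table moved the same way, to 1318 in water deficit (423 in the main fit) and 295 in heat stress (1031). DESeq2 made more calls over the whole table, with 6936 genes for combined stress against control (4573 with limma). Against water deficit it called 7082 genes (4221 with limma). With DESeq2 the number of members called was 3 in combined stress against control (ELF3A, TOC1, GIGANTEA) and 1 against water deficit (GIGANTEA). With 1 library left out these counts ran from 0 to 1 in heat stress, 0 to 5 in combined stress (5 without combined stress library 1 or heat stress library 3) and 0 to 4 in combined stress against water deficit (4 without combined stress library 1). No called member changed sign. Signs that turned belonged to differences that were not called. GMELF4A in water deficit was -0.040 with edgeR and -0.048 with DESeq2. GMLUXC was 0.32 and 0.31 in combined stress against water deficit and 0.11 and 0.11 against heat stress. FKF1 had an interaction of 0.11 and 0.11 with the same tools. GMGIA against water deficit was 0.0071 with equal totals and 0.0031 with TMM factors, and 0.0035 with TMM against heat stress. With 1 library left out, water deficit minus control ran from -0.18 to 0.20 for GIGANTEA, -0.18 to 0.31 for GMELF4A and -0.034 to 0.27 for GMGIA. Heat stress minus control ran from -0.20 to 0.75 for TOC1, -0.27 to 0.074 for GMELF3B, -0.84 to 0.023 for FKF1 and -0.035 to 0.30 for GMGIA. Combined stress minus control ran from -0.058 to 0.24 for GMGIA. Combined stress minus water deficit ran from -0.069 to 0.047 for GMGIA and -1.33 to 0.28 for GMLUXC. Combined stress minus heat stress ran from -0.52 to 1.24 for GMLUXB, -0.18 to 0.067 for GMGIA, -0.24 to 0.11 for GMELF3B and -1.43 to 0.18 for GMLUXC. The interaction ran from -0.22 to 1.54 for GMLUXB, -0.057 to 1.55 for GMLUXC, -0.83 to 0.28 for FKF1, -0.10 to 0.85 for TOC1 and -0.33 to 0.011 for GMGIA. The ratio changes with water deficit ran from -0.23 to -0.13 for GIGANTEA per GMGIA and -0.14 to 0.025 for ELF3A per GMELF3B, and from 0.71 to 1.38 for GMLUXB per GMLUXC. The causes were not tested. No paired analysis was possible because the labels number the 12 libraries in 1 run and share no number between groups. Depth limits GMELF4A, with 1 or 2 reads in 3 libraries.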

Other observations

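Light signalling genes beside the clock gave a few calls of their own. STF2, which carries the symbol of HY5-type bZIP factors, was higher in combined stress, with 644, 781 and 766 normalized counts, against 449, 468 and 333 in heat stress, 414, 441 and 368 in water deficit, and 425, 402 and 364 in control. Its log2 difference from control was 0.88 in combined stress (SE 0.18, limma adjusted p 0.00852), kept in 12 of 12 fits that left out 1 library, and combined stress did not overlap any other group. PIF3, a phytochrome-interacting factor, was lower in all 3 treatments than in control, with log2 differences of -0.74 in combined stress, -1.25 in heat stress and -1.004 in water deficit (limma adjusted p 0.0233, 0.00828 and 0.0283). It had 252, 273 and 355 normalized counts in combined stress, 219, 195 and 196 in heat stress, 258, 238 and 229 in water deficit, and 450.2, 443 and 572 in control. Of the 12 fits that left out 1 library, 8 kept the call in combined stress, 12 in heat stress and 6 in water deficit. None of the 7 photoreceptor genes of the list was called in any comparison by limma. CRY1a, with the highest counts of them, had 1638, 3145 and 4359 normalized counts in combined stress, 1946, 1639 and 4189 in heat stress, 1592, 1546 and 1188 in water deficit, and 2504, 2891 and 2105.5 in control. Through RefSeq names, 6 more were found, of which LOC100815428 (GmCRY1d1, a cryptochrome) was higher in combined stress, with 4190.4, 6080.3 and 6374 normalized counts, against 2259.9, 2298 and 1626 in control (log2 difference 1.42, SE 0.30, limma adjusted p 0.0105). Its heat stress libraries had 2770.4, 2527 and 5943, so library 3 lay within the range of combined stress. LOC100815428 was also called higher in combined stress than in water deficit (log2 difference 1.16, limma adjusted p 0.0289). That call was kept in 7 of 12 fits that left out 1 library. LOC100233234 (GmCRY2a1) was called higher in the same comparison (log2 difference 0.98, limma adjusted p 0.0393).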
